A study of Mus musculus with 145 samples.

Results

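*Eomes*, *T*, *Mixl1*, *Gata4*, *Gata6*, *Sox17*, *Foxa2* and *Cdx2* are 8 transcription factor genes that act in the primitive streak, in mesoderm and endoderm and in the trophectoderm of the early mouse embryo. They were taken by symbol, from a list made with earlier results of these data known, among the 24615 genes of a table of single-cell transcriptomes of spermatogonial stem cells (SSCs) turning into pluripotent cells in culture. All 8 were in that table, and their levels were followed over the cell clusters that the authors had named. SSCs from male pups of C57BL/6 females and DBA males (DBA/2 in the methods of the study), carrying an *Oct4*-EGFP or EGFP transgene and grown on mouse embryonic fibroblast feeders, were kept without passage for up to 27 days in SSC medium with EGF, bFGF, GDNF and LIF, and no chemical was added. Single cells were picked by mouth pipette and profiled by a modified STRT-seq, which counts each captured transcript as 1 UMI (unique molecular identifier). The 46 libraries of days 0 to 27 held 4339 cells in 18 clusters, and each library had 15975410 to 34609591 UMIs.

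The clusters were grouped into 9 classes. SSC1-4 are the germline stem cell clusters, early-pluripotency 1 and 2 carry part of the pluripotent program by the authors' naming, RPG1 to RPG4 are 4 reprogramming clusters, and the others were named fibroblast, meiotic and neural. A single gPSC line (germline-derived pluripotent stem cells, gPSC-1) at passages 1 and 15 and 1 ESC line of the same cross, all in 2iL medium, gave 1 library each (125 cells in all, 10833720 to 14807169 UMIs). A second experiment, scTrio-seq2, held 8 samples treated with the chemicals called 5C (SGC707, vitamin C, EGCG, Daphnetin and TUDCA) and collected on days 12 to 16, and 5 DMSO samples collected on days 20 and 24, 1 of which also held day 0 cells. Every cell of a class in a library was summed, a sum was kept where it had at least 5 cells, and the unit CPM is the gene's share of the UMIs of its sum, scaled to 1000000. The library is the replicate throughout, and nothing in the labels says that libraries of 1 day came from separate cultures, so that p-values may reflect technical spread only. The class names were made by clustering the same transcriptomes, so the tests below measure the spread between libraries and are no independent test of a class.

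In the gastrulating embryo, Nodal and Wnt signals switch on the T-box genes *Eomes* and *T* (Brachyury) and the homeobox gene *Mixl1* in the posterior epiblast, where the primitive streak forms. Cells that pass through the streak become mesoderm, marked first by *T*, or definitive endoderm, for which *Eomes* is needed and in which *Foxa2* and *Sox17* come on, while *Gata4* and *Gata6* serve extraembryonic endoderm as well as heart and gut. *Cdx2* sets up the trophectoderm and later patterns the posterior embryo. *Eomes* and *T* are also known in undifferentiated spermatogonia, so their transcripts in SSCs are not foreign to that cell type.

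The promoters of the members with a start in the RefSeq table are printed first, as the 250 bases before the RefSeq start on the coding strand of GRCm38, with any motif in capitals. *Eomes* lies at chr9:118478212-118486132 on the plus strand, *T* at chr17:8434423-8442496 on the plus strand, *Foxa2* at chr2:148042877-148046969 and *Cdx2* at chr5:147300805-147307270 on the minus strand. RefSeq starts were found for 4 of the 8 members in the copy used. *Mixl1*, *Gata4*, *Gata6* and *Sox17* had no entry in that copy, which does not mean that RefSeq has none, and are named only.
*Eomes*, chr9:118477939-118478188, plus strand: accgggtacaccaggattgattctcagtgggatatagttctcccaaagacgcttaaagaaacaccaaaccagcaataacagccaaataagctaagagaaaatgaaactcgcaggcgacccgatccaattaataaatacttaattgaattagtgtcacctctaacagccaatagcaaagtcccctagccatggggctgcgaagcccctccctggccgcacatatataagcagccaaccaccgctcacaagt
*T*, chr17:8434173-8434422, plus strand: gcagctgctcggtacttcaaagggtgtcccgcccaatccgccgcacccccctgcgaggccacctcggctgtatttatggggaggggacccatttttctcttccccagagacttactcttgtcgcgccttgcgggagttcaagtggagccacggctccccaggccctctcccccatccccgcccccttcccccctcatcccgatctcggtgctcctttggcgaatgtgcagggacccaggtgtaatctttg
*Foxa2*, the third start, chr2:148045465-148045714, minus strand: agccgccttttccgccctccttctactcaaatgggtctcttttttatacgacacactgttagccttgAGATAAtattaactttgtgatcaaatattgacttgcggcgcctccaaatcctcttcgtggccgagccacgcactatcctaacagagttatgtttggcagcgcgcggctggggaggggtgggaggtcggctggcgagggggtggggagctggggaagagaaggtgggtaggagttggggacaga
*Cdx2*, chr5:147307250-147307499, minus strand: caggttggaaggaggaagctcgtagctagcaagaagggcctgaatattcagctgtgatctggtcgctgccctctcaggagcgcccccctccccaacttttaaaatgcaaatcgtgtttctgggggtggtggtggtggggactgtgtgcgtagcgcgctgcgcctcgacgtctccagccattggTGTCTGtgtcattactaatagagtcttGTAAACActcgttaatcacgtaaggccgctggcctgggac
The motifs searched were 5, on both strands, and none overlapped another where found. The T-box motif TCACACC occurred in 3.33% of all 32851 promoters of this length, the SMAD box CAGACA in 17.1%, the TCF/LEF motif ATCAAAG in 3.205%, the GATA motif AGATAA in 9.99% and the forkhead motif TGTTTAC in 3.17%. None of these letters stood in the *Eomes* or *T* window. The *Foxa2* window printed was chosen of 3 because it alone held a motif, and it had a GATA motif 183 bases before the start, and the *Cdx2* window held a SMAD box 67 bases and a forkhead motif 40 bases before the start, both read on the opposite strand. A match is a string of letters and not a binding site.

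The members were first compared between RPG4 and its neighbour RPG3, and most stood higher in RPG4. RPG4 had 33 cells, and only 2 libraries, replicates 1 and 2 of day 20, held enough of them for a sum (8 and 13 cells, 2518163 and 4966558 UMIs). RPG3 was summed in 8 libraries of days 12 to 23. In all, 7 of the 8 members were called higher in RPG4 and none lower, with a median log2 difference of 3.84, against 8.45% of the 20030 genes tested called in either direction and a median of -0.27 over all of them (edgeR quasi-likelihood test; a call needs a Benjamini-Hochberg adjusted p under 0.05 and a natural-log fold change of at least 0.5). Only *Eomes* and *Foxa2* were called with either RPG4 library left out, and the other 5 calls rested on replicate 2.

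*Eomes*, the T-box gene needed for endoderm, was at 79.4 and 114.6 CPM in the 2 RPG4 sums, and at 2.91, 5.4 and 14.1 CPM as lowest, median and highest of the 8 RPG3 sums. Both RPG4 values lay above every RPG3 value, also within the same libraries, where RPG3 cells had 5.08 and 9.76 CPM. The fitted log2 difference was 3.55 (SE 0.73, edgeR adjusted p = 0.000365), and 3.31 without replicate 2 (adjusted p = 0.0202). *Foxa2*, the forkhead factor of endoderm and node, was at 54.0 and 35.4 CPM in RPG4 and at 1.25, 3.03 and 11.65 CPM in RPG3. The classes did not overlap, and the log2 difference was 3.34 (SE 0.68, edgeR adjusted p = 0.000300), or 3.64 without replicate 2 (adjusted p = 0.00312).

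The 2 RPG4 libraries disagreed on *T*, the early mesoderm gene, which was at 2.38 CPM in replicate 1 and 65.6 CPM in replicate 2. RPG3 spanned 0.0958 to 7.0 CPM (median 1.02), so replicate 1 lay inside its range and replicate 2 far above it. The log2 difference of 4.12 (SE 1.15, edgeR adjusted p = 0.0113) fell to 0.34 without replicate 2. *Mixl1*, a streak homeobox gene, showed the same split, with 1.19 and 15.5 CPM in RPG4 against 0, 0.336 and 3.15 CPM in RPG3, and its log2 difference of 3.44 (SE 0.93, edgeR adjusted p = 0.00863) fell to 0.69.

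The endoderm genes *Sox17*, *Gata4* and *Gata6* were near or at 0 in RPG3 and high in RPG4 replicate 2. *Sox17* was at 1.59 and 35.8 CPM in RPG4, while 6 of 8 RPG3 sums were at 0 and the highest was 0.846 CPM (log2 difference 6.275, SE 1.77, edgeR adjusted p = 0.0128, and 2.83 without replicate 2). *Gata4* was at 2.38 and 10.9 CPM in RPG4, above all RPG3 sums, 5 of which were at 0 and the highest at 1.12 CPM. Its UMIs lay in 1 cell of each RPG4 sum, 6 in replicate 1 and 54 in replicate 2. The log2 difference of *Gata4* was 4.60 (SE 1.39, edgeR adjusted p = 0.0226), and 3.18 without replicate 2. *Gata6* was at 0 in replicate 1 and 17.3 CPM in replicate 2, and RPG3 held 1 UMI in all. For *Gata6* the 86 UMIs of RPG4 against that 1 UMI gave a ratio of CPM of 876 with a 95% counting interval of 153 to 3.5e+04; the fitted difference of 8.37 (edgeR adjusted p = 0.00178) depends on the prior count and turned to -1.52 without replicate 2. *Cdx2* was at 0 in every RPG4 and RPG3 sum.

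Some of these calls were lost in other fits. With library as a block, which draws on the 2 libraries having sums of RPG4 and RPG3, 5 members passed the filter and 4 were called (10.4% of all genes in that fit), *Eomes* (log2 difference 3.69), *Foxa2* (4.62), *T* (4.34) and *Sox17* (5.90), while *Gata4* was not (edgeR adjusted p = 0.0864). In the RPG3 sums of these libraries *Sox17* had 0 and 5 UMIs and *Gata4* 0 and 1, so both passed the filter through RPG4. *T* (1 and 26 UMIs) and *Foxa2* (15 and 17 UMIs) each had only 1 RPG3 sum past the cutoff and needed RPG4 too. The count is therefore not read against the share of all genes. With the UMIs of each member's highest cell taken from that member's count in each sum, and all other counts kept, a setting chosen after seeing the data, 4 members were called, *Eomes* (3.64), *Foxa2* (2.97), *Mixl1* (3.66) and *Gata6* (8.46), but not *T* (2.38), *Sox17* (3.66) or *Gata4* (-2.31). Of the *Mixl1* UMIs then left in replicate 2, 28 of 29 lay in 1 cell, and all 32 of *Gata6* did. Both calls thus still rested largely on 1 cell each. The 8.43% of all genes called in this setting comes from counts that it left as they were and is no background for it. With 1 sum per batch and day in place of the library, 3 were called (5.65% of all genes), *Eomes* (3.34, edgeR adjusted p = 0.0066), *Foxa2* (2.93, 0.0317) and *Gata6* (8.19, 0.0314), and the calls of *T* (adjusted p = 0.146), *Mixl1* (0.0967), *Gata4* (0.057) and *Sox17* (0.0777) were lost.

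**Figure D1:**
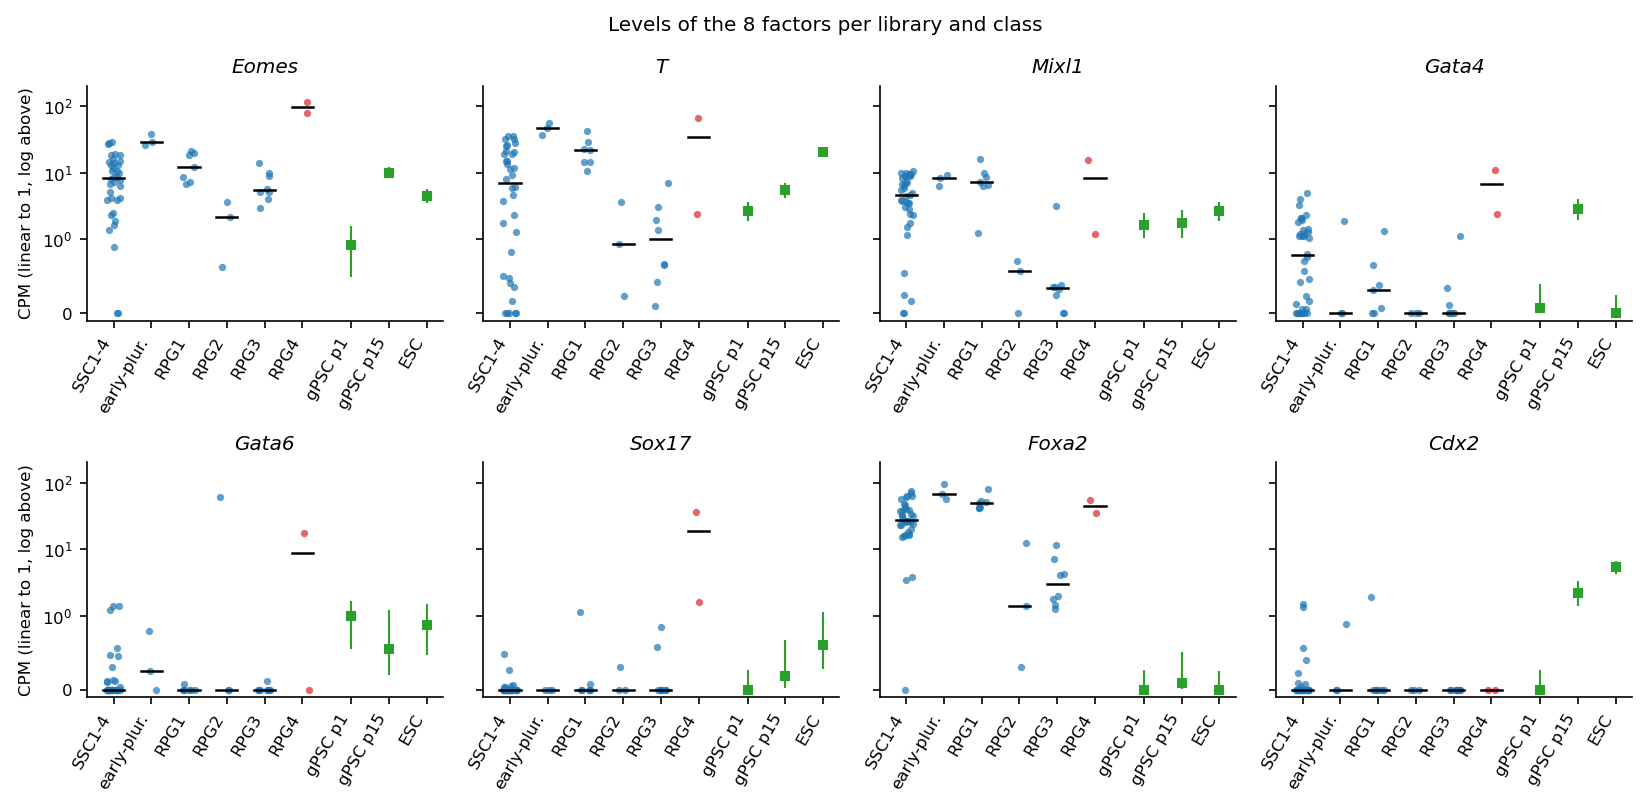
CPM of each of the 8 factors (linear from 0 to 1, logarithmic above) in each library sum of SSC1-4, early-pluripotency, RPG1, RPG2, RPG3 and RPG4, with the median as a bar, and in the gPSC p1, gPSC p15 and ESC libraries as squares with exact 95% Poisson intervals for counting error. *Eomes* in the 2 RPG4 sums (79.4 and 114.6 CPM) lies above all other sums, whereas *Foxa2* is low in RPG3 (1.25 to 11.65 CPM) and near 0 in the 3 lines.

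**Figure D2:**
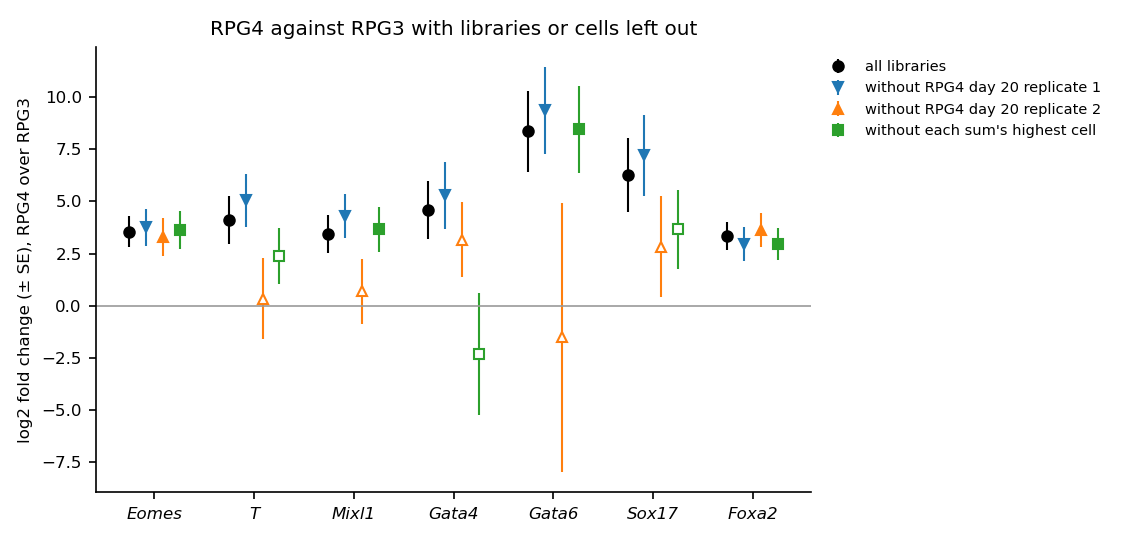
Fitted log2 difference (points) with its standard error (bars) of RPG4 over RPG3 for 7 factors, with all libraries, without either RPG4 library, and without each sum's highest cell. Filled symbols were called and open ones not; *Eomes* and *Foxa2* are filled in all 4 settings.

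Marker lists were read beside these differences. The summed CPM of 12 pluripotency genes was 1571 to 1634 in RPG4 and 2144 to 2657 in RPG3, against 235 to 485 in SSC1-4, and 8 SSC markers summed to 270.2 to 278.0, 309 to 577 and 1619 to 2452 CPM in the same order. Of 9 fibroblast and feeder markers, 7 and 2 were above 0 in the 2 RPG4 sums, with *Lum* and *Dcn* at 0 in both. The list summed to 2.42 to 5.96 CPM in RPG4, 2.08 to 23.3 in RPG3 and 338 to 2574 in the fibroblast class. Against RPG3, 1 of these markers was called lower in RPG4 and 0 higher. Of 6 Sertoli markers 4 and 5 were above 0 in the 2 RPG4 sums, they summed to 53.2 to 62.2 CPM in RPG4 against 16.55 to 54.1 in RPG3, and 2 were called higher and 1 lower; their part in the member differences was not tested. All 96 well barcodes recurred across libraries, as they do in plate protocols, but no cell name did. In such sums, fewer cells with a transcript and less transcript per cell cannot be told apart, so single cells were read next.

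*Eomes* was found in most RPG4 cells, *Foxa2* in more than 50% of them and each other member in fewer. Of the 33 RPG4 cells, 28 had an *Eomes* UMI (84.85%, exact 95% binomial interval 68.1 to 94.9%), against 109 of 261 RPG3 cells (41.8%, 35.7 to 48.0%), and 17.4% of 505 meiotic cells, with median depths of 345221, 285699 and 247049 UMIs per cell. These intervals cover counting error only and not the spread between libraries. Most early-pluripotency cells also had an *Eomes* UMI, with 26.3 to 37.8 CPM in their sums, so finding it in most cells was not particular to RPG4. By library, *Eomes* was seen in 7 of 8 and 12 of 13 RPG4 cells of day 20 replicates 1 and 2, and in 17 of 29 and 16 of 26 RPG3 cells of the same libraries. After thinning each cell to 50000 UMIs the shares were 66.7% of 33 RPG4 cells and 18.5% of 254 RPG3 cells. *Foxa2* was seen in 19 RPG4 cells (57.6%) and 128 RPG3 cells (49.0%), and 24.2% and 18% had 2 UMIs or more. A *Foxa2* UMI was as frequent in cells of other kinds, with 58.2% of 505 meiotic and 70.1% of 221 fibroblast cells, so these shares are not read as a difference in expression.

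*T* was found in 12 RPG4 cells, *Mixl1* in 9, *Sox17* in 6, *Gata4* and *Gata6* in 3 each and *Cdx2* in 0, which allows a share of cells with a UMI of up to 9.09% and does not limit the share that express the gene. Every RPG4 cell with *T*, *Mixl1*, *Gata4*, *Gata6* or *Sox17* also had *Eomes*, and 18 of the 19 with *Foxa2* did. Of the RPG4 cells, 4 had none of the 8 members, 4 had 1, 8 had 2, 11 had 3, and 6 had 4 or more. The transcripts were unevenly shared. A cell of day 20 replicate 2 (318948 UMIs) held 168 of the 182 *Sox17* UMIs of the class, with 89 of *Eomes*, 88 of *Foxa2*, 54 of *Gata4*, 54 of *Gata6* and 28 of *Mixl1*, but 0 of *T*. Another cell of that library (581161 UMIs) held 247 of the 334 *T* UMIs, with 32 of *Gata6* and 25 of *Eomes*, and only 1 of *Foxa2*. With each gene's highest cell and all of that cell's UMIs left out, *Eomes* was at 67.6 and 88.4 CPM in the 2 RPG4 sums and *Foxa2* at 32.1 and 18.9 CPM, while *T* was at 0 and 18 CPM and *Sox17* at 0 and 2.15 CPM. *Foxa2* lay largely in 2 cells of each sum, with 69 and 65 of the 136 UMIs of replicate 1 and 88 and 64 of the 176 UMIs of replicate 2, and no other of the 21 cells had more than 13. Leaving out 1 cell therefore still left another with most of the *Foxa2* UMIs.

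The 12 RPG4 cells of 6 further libraries, too few per library for a sum, were not used by the test. Among them, 9 had *Eomes*, at 57.1 CPM together (exact 95% Poisson interval 50.1 to 64.9), with 129 of the 237 UMIs in 1 cell of day 27 replicate 1, and 4 had *Foxa2*, at 21 CPM (16.8 to 25.9), with 40 and 45 of the 87 UMIs in 2 cells. *T* had 2 UMIs in 1 of these cells, *Gata4* 16 UMIs in 1 cell, and *Sox17* none. These intervals cover counting error only.

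**Figure D3:**
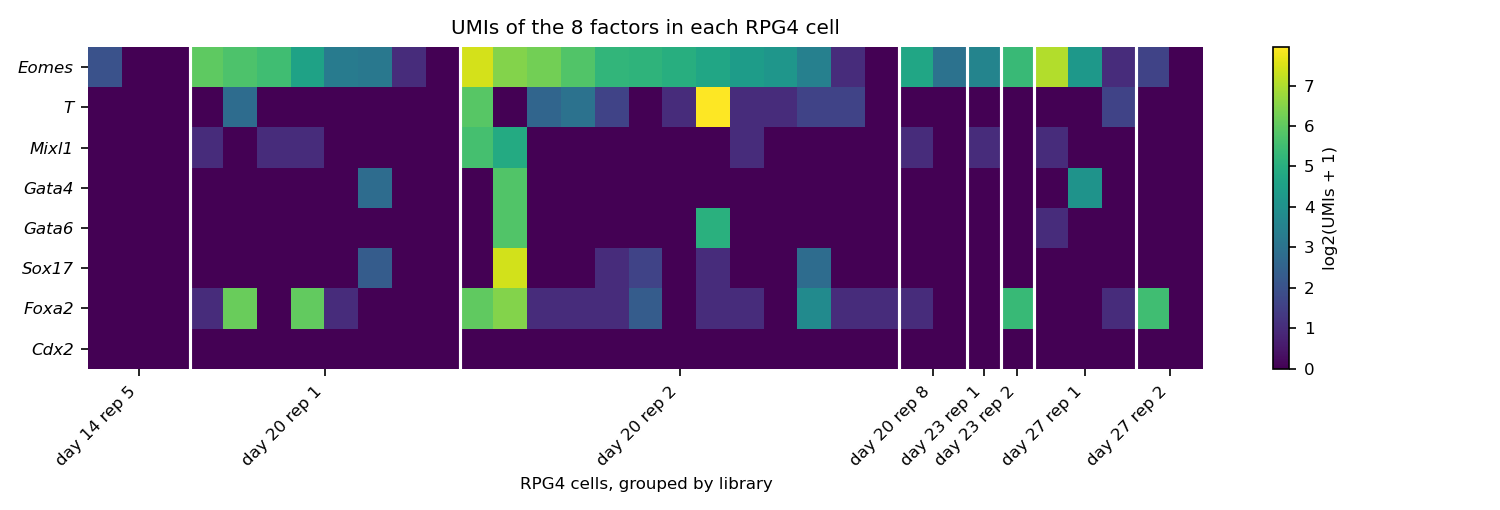
log2(UMIs + 1) of the 8 factors (rows) in each of the 33 RPG4 cells (columns), grouped by library with white lines between libraries. *Eomes* is present in 28 cells over all libraries, whereas *Sox17*, *Gata4* and *Gata6* are each bright in 1 or a few cells.

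Against SSC1-4 (36 sums, days 0 to 27), *Foxa2*, *Mixl1*, *T* and *Cdx2* were lower in RPG3 and *Sox17* higher, so that 5 of the 8 members were called. Of all genes, 46.9% were called in this comparison, so that many calls are common in it. The comparisons of RPG1, RPG2, RPG3, RPG4 and the other classes with SSC1-4 all share its 36 sums. *Foxa2* was at 0, 27.5 and 74.4 CPM (lowest, median, highest) in SSC1-4 and at 1.25, 3.03 and 11.65 CPM in RPG3, and the ranges overlapped (log2 difference -2.87, SE 0.48, edgeR adjusted p = 2.3e-07). *Mixl1* fell by 2.73 on the log2 scale (median 4.57 to 0.336 CPM, edgeR adjusted p = 0.000227) and *T* by 2.56 (median 7.04 to 1.02 CPM, edgeR adjusted p = 0.00532). *Cdx2* had 95 UMIs over 8 of 36 SSC1-4 sums and 0 in RPG3, hence at least 4.12-fold lower taking 3 counts over the group as the floor (edgeR adjusted p = 0.0305, and 0.0504 without day 18 replicate 5). *Sox17* was the exception and rose (log2 difference 2.51, edgeR adjusted p = 0.0167), but 12 of its 17 RPG3 UMIs lay in 1 cell, and the call was lost without day 18 replicate 3 or day 20 replicate 2. *Eomes* in RPG3 was within the SSC1-4 range (log2 difference -0.25, SE 0.43, edgeR adjusted p = 0.631). In a fit with library as a block (2 libraries had both sums), 2 of 4 members tested were called beside 26.6% of all genes in that fit, *T* (-5.08) and *Foxa2* (-2.95), and *Mixl1* was not (edgeR adjusted p = 0.0771).

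No member separated RPG1, the first reprogramming cluster, from SSC1-4 past the threshold. The count was 0 of 8 by edgeR and 0 of the 7 given an adjusted p by DESeq2 (3.78% of all genes were called by edgeR), and *Gata6* and *Sox17* had an unadjusted p under 0.05. RPG1 sums had *T* at 10.6, 21.9 and 42.0 CPM, *Foxa2* at 41.4, 49.8 and 80.8 CPM and *Eomes* at 6.805, 12.2 and 21.45 CPM. From RPG1 to RPG3, with 35.7% of all genes called, 4 members were lower, and the *T* and *Foxa2* ranges of the classes did not overlap. *Foxa2* fell by 3.54 on the log2 scale (edgeR adjusted p = 8.79e-08), *T* by 3.54 (edgeR adjusted p = 0.00158) and *Mixl1* by 3.37 (edgeR adjusted p = 0.000150). These 3 calls also stood in the fit with library as a block, for which 7 libraries had sums of RPG1 and RPG3 and which called 45.4% of all genes. *Cdx2* was called too, but its 30 RPG1 UMIs came from 1 cell of day 23 replicate 2.

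RPG2 (3 sums of 8 to 21 cells, days 12 to 14) had low levels of most members, and 5 of 8 were called against SSC1-4 where 32% of all genes were. *Foxa2* was at 12.2, 1.42 and 0.312 CPM (log2 difference -2.81, edgeR adjusted p = 0.00184, and -5.06 to -2.23 with 1 of the 3 libraries left out), *Eomes* at 3.68, 2.13 and 0.624 CPM (-2.10, edgeR adjusted p = 0.0352), and *Mixl1* fell by 3.48 (edgeR adjusted p = 0.0118). *Gata4* had 0 UMIs in RPG2, at least 6.07-fold lower than the 753 UMIs of SSC1-4, a call lost without any 1 of the 3 libraries. *Gata6* was called higher (6.92, edgeR adjusted p = 2.32e-09), with all 389 UMIs in day 14 replicate 6, 204 of them in 1 cell; without that library the value was -4.50, and of the 5 calls only that of *Foxa2* was left. The call of *Eomes* was also lost without day 14 replicate 5. With library as a block, over 2 libraries, 2 of 5 members tested were called beside 22.3% of all genes, *Foxa2* (-5.06) and *Gata6* (5.73).

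Set against SSC1-4 rather than RPG3, RPG4 differed in fewer members. There 3 were called higher and none lower, where 25.8% of all genes were called. DESeq2 called only *Eomes* of them, with an adjusted p of 0.0685 for *Gata6* and none given for *Sox17*. *Eomes* was higher by 3.30 (SE 0.55, edgeR adjusted p = 1.13e-06), all 36 SSC1-4 sums lying at or below 28.45 CPM. *Sox17* was higher by 8.78 (SE 1.07, edgeR adjusted p = 1.74e-10), with 30 of 36 SSC1-4 sums at 0. It was 5.33 without replicate 2, where 168 of the 178 UMIs lay in 1 cell. What was left were 4 *Sox17* UMIs in 1 cell of replicate 1, which had 56690 UMIs. That sum was at 1.59 CPM, where 3 counts would be 1.19 CPM. *Gata6* was higher by 5.36 but stood at -4.52 without replicate 2. *Foxa2* (log2 difference 0.47, SE 0.66, edgeR adjusted p = 0.601) and *T* (1.56, SE 1.0, edgeR adjusted p = 0.252) were not called: the RPG4 values of *Foxa2* lay within the SSC1-4 range of 0 to 74.4 CPM, and the RPG3 level was the low one.

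The 4 SSC clusters differed from each other in the streak genes. The median *T* level per sum was 0.700 CPM in SSC1, 1.17 in SSC2, 19.7 in SSC3 and 39.5 in SSC4, and the *Eomes* medians were 4.06, 1.24, 18.5 and 13 CPM in that order. *Foxa2* ran from 16.55 and 26.3 CPM in SSC1 and SSC2 to 47.3 and 50.4 CPM in SSC3 and SSC4. A *T* UMI was found in 7.82% of 818 SSC1 cells, 17.2% of 499 SSC2 cells, 55.9% of 494 SSC3 cells and 61.9% of 454 SSC4 cells, with 4.36% of 505 meiotic cells as the low end. Median depth differed (149268 UMIs per cell in SSC1, 378770 in SSC3), and thinned to 50000 UMIs the shares were 3.91, 5.05, 31.5 and 43.5%, in the same order. These clusters were made from the same cells, so the values are a description with no test.

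The early-pluripotency class had the highest *T* of all classes by median, though no member was called. Its 3 sums (days 12, 14 and 18, all of batch B2) had *T* at 46.7, 36.3 and 55.0 CPM, each above the highest SSC1-4 sum at 35.8 CPM. That holds for the 4 SSC clusters pooled: sums of SSC3 and SSC4 taken alone reached 85.2 and 61.1 CPM. *Eomes* was at 26.3, 28.55 and 37.8 CPM and *Foxa2* at 93.5, 55.8 and 67.0 CPM, both overlapping the SSC1-4 range. By edgeR 0 of 8 members were called against 1.24% of all genes, and 0 of 7 by DESeq2, while *Eomes* (log2 difference 1.64, SE 0.55, adjusted p = 0.120), *T* (2.00, SE 0.80, adjusted p = 0.212) and *Foxa2* (1.13, SE 0.50, adjusted p = 0.274) had an unadjusted p under 0.05. *T* was found in 92.4% of 119 early-pluripotency 1 cells and 74.0% of 77 early-pluripotency 2 cells, and *Foxa2* in 94.1% and 88.3%. *Sox17* had 0 UMIs in the 196 cells. This class kept SSC markers (1692 to 1880 CPM), and its pluripotency list (249 to 606 CPM) had 0 of 12 genes called against SSC1-4.

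Over the days of culture, the SSC1-4 sums were uneven. *T* stood at 11.3 CPM in the day 0 library and 25.9 in the day 10 library, at medians of 0.337 (2 libraries of day 12), 7.04 (6 of day 14), 0 (5 of day 16) and 1.29 (5 of day 18), then 19.2 (7 of day 20), 32.1 (6 of day 23) and 0.479 (3 of day 27). The 4 sums of day 16 at 0 held 7 to 10 cells, where 3 counts would be 3.42 to 6.93 CPM. All 13 sums of days 20 and 23, at 11.5 CPM or more, lay above every sum of days 12, 16, 18 and 27. None of the latter passed 5.93 CPM. *Eomes* had its highest medians on the same days, 14.1 and 18.95 CPM, but its ranges overlapped between days. Days differ in how their SSC1-4 cells divide among the 4 clusters, and no test of day was made.

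**Figure D4:**
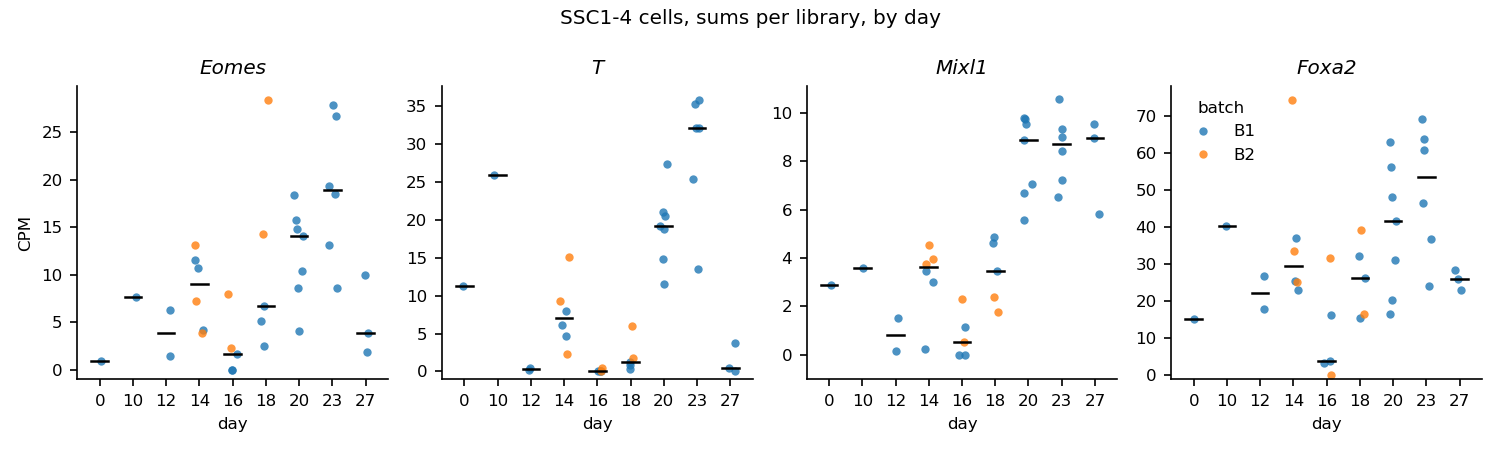
CPM of *Eomes*, *T*, *Mixl1* and *Foxa2* in SSC1-4 sums against the day of culture, 1 point per library, colored by batch, with the median of each day as a bar. *T* on days 20 and 23 (11.5 to 35.8 CPM) lies above days 12, 16, 18 and 27.

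In the pluripotent lines, with 1 library each and no test, the 8 genes kept to low levels with some exceptions. *T* was at 20.7 CPM in ESCs (exact 95% Poisson interval 18.5 to 23.2), where 31 of 45 cells had a UMI, and at 2.64 and 5.45 CPM in gPSC p1 and p15. *Eomes* was at 0.926 CPM in gPSC p1, 9.97 in p15 and 4.525 in ESCs, with 48 of the 108 p15 UMIs in 1 cell. *Cdx2*, at 0 in all RPG3 and RPG4 sums, had 5.335 CPM in 13 of 45 ESCs and 2.215 CPM in p15, against 0 in p1; 34 of the 79 ESC UMIs and 20 of the 24 p15 UMIs lay in 1 cell each. *Foxa2* had 0, 1 and 0 UMIs in p1, p15 and ESCs, and *Sox17* 0, 2 and 9 UMIs. Intervals cover counting error only.

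The remaining classes gave few calls against SSC1-4. In the 6 meiotic sums *T* was lower (0.20, 0.763 and 2.23 CPM, log2 difference -3.57, edgeR adjusted p = 0.0249; 1.38% of all genes called), a call lost without any 1 of replicates 1 to 4 of day 16 and with library as a block (0 of 3 members tested, 0.169% of genes). In the 12 neural sums, where 7.36% of genes were called, *T* was lower by 2.44 and *Eomes* by 1.43 (edgeR adjusted p = 0.0105 and 0.0118), and *Sox17* was higher (4.79, edgeR adjusted p = 1.16e-05), with 139 of its 243 UMIs in 1 cell of day 27 replicate 2. With library as a block 1 of 4 neural members tested was called, *T* (-3.45), beside 2.09% of genes. In the fibroblast class 0 of 8 were called by edgeR (5.33% of genes) and 0 of 7 by DESeq2, and *Cdx2* and *Gata6* had an unadjusted p under 0.05.

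The scTrio-seq2 samples held few RPG4 cells, and their class names had been predicted by the authors with scPred from the STRT-seq clusters. RPG4 sums of 5 or 6 cells came from DMSO samples 1 and 2 and from 5C sample 5. *Eomes* had 4, 0 and 0 UMIs there in that order, and RPG3 sums of DMSO had 5.28 and 8.61 CPM (log2 difference of RPG4 over RPG3 -0.52, SE 1.66, edgeR adjusted p = 0.899), so no high *Eomes* was measured in these RPG4 cells. Counts of 3 UMIs would be 4.98 to 5.95 CPM in these sums, under the STRT-seq RPG4 values of 79.4 and 114.6 CPM, though the experiments were made and counted separately. *Foxa2* had 0, 0 and 38 UMIs and *T* 0, 0 and 18, all in 5C sample 5. *Foxa2* was the only 1 of 6 members tested to be called (2.93, SE 0.64, edgeR adjusted p = 0.00344; 3.61% of 14323 genes called), it stood at -4.29 without 5C sample 5, and no member was called with sample as a block (2.82% of genes). The 5 cells of that sample summed to 1008 CPM of SSC markers, against 228 and 268.7 CPM in the DMSO RPG4 sums; the part of this in the *Foxa2* value was not tested. *Sox17* and *Cdx2* were not in the DMSO table and were not tested.

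Within predicted RPG3 cells, *Foxa2* was higher under 5C. It was at 2.24 to 6.87 CPM in the 6 sums of 5C and at 0 and 0.182 CPM in the 2 sums of DMSO. The values did not overlap. The log2 difference was 4.84 (SE 1.46, edgeR adjusted p = 0.0339), where 13.4% of 11390 genes were called. With 1 and 0 UMIs in the DMSO sums, *Foxa2* passed the filter through 5C, so its call is not read against that share. The call was lost without either DMSO sample (adjusted p = 0.142 without sample 1 and 0.345 without sample 2 by edgeR, the lone DMSO sample being assumed to vary like the others) or without 5C sample 1 (0.0646). SSC markers were higher with it: 3 of 7 tested were called, *Dazl* (1.72), *Ddx4* (1.27) and *Id4* (1.88), and the list summed to 431 to 780 CPM in the 5C sums against 282 and 288 CPM in the DMSO sums. The part of this in the *Foxa2* difference was not tested. *Eomes*, the only other member tested, was at 0 in 5 of 6 sums of 5C (-3.64, SE 1.25, edgeR adjusted p = 0.0592). It passed the filter through the DMSO sums (5.28 and 8.61 CPM). Without 5C sample 5 it was called lower (-7.55, edgeR adjusted p = 0.0091). Every 5C sum left was then at 0, so that the fitted size depends on the prior count. In SSC1-4 cells, singled out after their values were seen and not tested, *T* was at 3.97 to 32.25 CPM in 8 samples of 5C and at 0, 0 and 1.82 CPM in 3 of DMSO. The 5C samples are of days 12 to 16 and the DMSO samples of days 20 and 24, so treatment and day cannot be told apart.

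**Figure D5:**
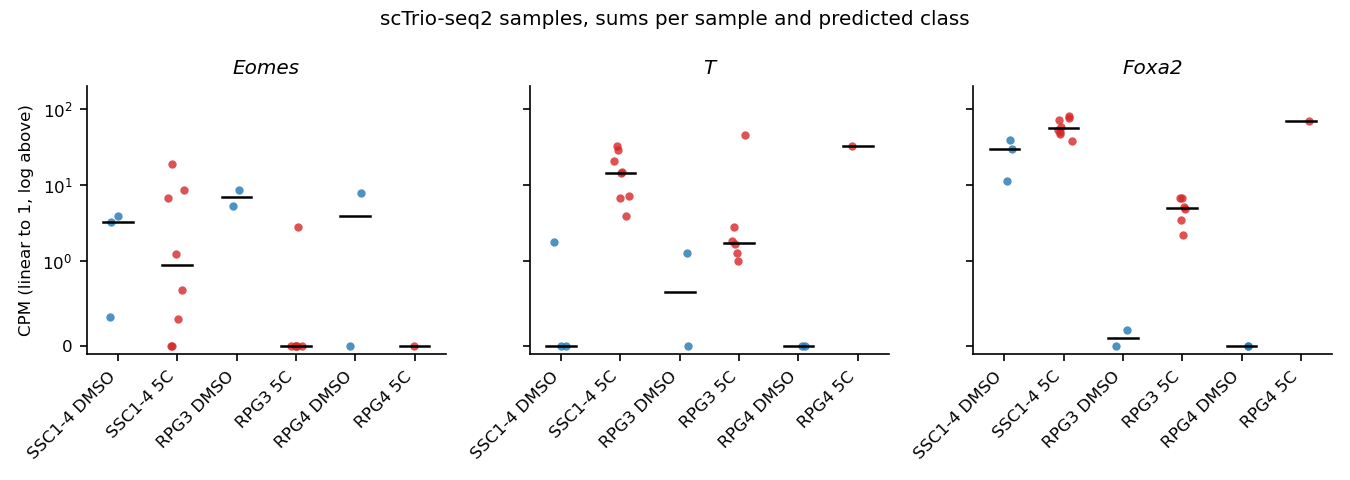
CPM (linear from 0 to 1, logarithmic above) of *Eomes*, *T* and *Foxa2* in scTrio-seq2 sums per sample of predicted SSC1-4, RPG3 and RPG4 cells under DMSO or 5C, with the median as a bar. *Foxa2* in RPG3 is at 2.24 to 6.87 CPM under 5C and at 0.182 CPM or less under DMSO, and *Eomes* is at 0 in 5 of the 6 RPG3 sums of 5C.

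The other genes of these lineages, from lists made with earlier results of the data known, were read beside the members. Of 15 primitive streak and mesendoderm genes tested, 6 were higher in RPG4 than in RPG3 and none lower, with a median of 1.31 against -0.27 over all genes. They were the signals *Fgf8* (6.22) and *Wnt3* (5.51), the activin and BMP antagonist *Fst* (5.34), the organizer gene *Gsc* (4.74), and *Lhx1* and *Sp5*. *Fst* was at 112 to 123 CPM in the RPG4 sums against 0 to 6.91 CPM in RPG3, and *Wnt3* at 38.7 to 47.3 against 0.192 to 2.81 CPM. *Fgf8*, *Fst* and *Wnt3* were called also without replicate 2, and the other 3 were not.

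Beside the 8.45% of all genes called between RPG4 and RPG3, 3 of 15 endoderm genes were higher in RPG4, the Nodal and Wnt antagonist *Cer1* (6.07), *Foxa1* (5.27) and the laminin chain *Lamb1* (1.51), and *Afp* was lower (-1.72), with a list median of -1.14; none was higher without replicate 2, *Afp* was not called without either library, and *Cer1* stood at 1.19 and 43.5 CPM in the 2 sums. Of 13 later mesoderm genes, 2 were lower, *Tbx3* (-5.31) and *Bmp4* (-5.24), and none higher. Without replicate 1 only *Tbx3* of these was called, and without replicate 2 neither. Of 11 trophectoderm genes, the keratins *Krt7* (3.63) and *Krt8* (3.09) were higher and *Tfap2c* (-4.51) lower. Only *Tfap2c* was called without replicate 1, and only *Krt7* without replicate 2. From SSC1-4 to RPG3 the streak list split into 5 higher genes, led by the Nodal coreceptor *Tdgf1* (7.59), *Lefty1* (6.33), *Lefty2* (5.88) and *Nodal* (5.05), and 8 lower ones, led by *Wnt3* (-5.06) and *Wnt3a* (-4.78), of 15 tested. In the same comparison 10 of 15 endoderm, 12 of 13 later mesoderm and 7 of 11 trophectoderm genes were called, beside the background of 46.9%. Early-pluripotency cells differed from SSC1-4 in 1 gene of the 4 lists, *Ttr* (6.13), where 1.24% of all genes were called.

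Likeness of pattern was taken as Pearson's r of log2(CPM + 1) over 21 points, the 18 clusters and 3 lines, as a description; the points share depth and libraries. *Eomes* was most like *Podxl* (0.90), *Atp8a1* (0.88) and *Igsf1* (0.81), *Foxa2* most like *Lhx1os* (0.96) and *Igsf21* (0.95), *Mixl1* most like *Chn2* (0.92), and *T* most like X2810459M11Rik (0.82) and *Epha2* (0.76). *Sox17* was most like *Actc1* (0.98), *Ccdc33* (0.98) and *Cer1* (0.95). Of its UMIs, 168 of 182 in RPG4 and 139 of 140 in the Neural 3 cluster lay in 1 cell each. Its r may thus follow the content of these cells. *Gata6* was most like *Cd83* (0.93), *Gata4* most like X0610040J01Rik (0.87) and *Cdx2* most like *Sycp2l* (0.94). These 3 had the same limit, with 73 of 83 *Gata6* and 68 of 77 *Gata4* UMIs of Neural 3 in 1 cell each. For *Cdx2*, 29 of the 31 UMIs of Neural 2 lay in 1 cell. Among the members, the highest r was that of *Mixl1* with *Foxa2* (0.78), followed by *Eomes* with *T* (0.69) and *Eomes* with *Mixl1* (0.69).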

How the data were processed

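The authors extracted cell barcodes and UMIs with UMI-tools, aligned reads to mm10 with STAR 2.7.2b, assigned genes with featureCounts 2.0.0, removed cells with few genes or a high mitochondrial share, and deposited the raw UMI counts of each cell for STRT-seq and scTrio-seq2. Cluster and batch names are the authors' deposited annotation (Seurat), and scTrio-seq2 classes their scPred predictions. No doublet caller was run here, since cells had been picked singly.

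From these counts, the cells of each library and class were summed where there were at least 5, and CPM was taken per sum. Differences came from edgeR 4.0.16 (R 4.3.3; TMM, filterByExpr by class, quasi-likelihood test), with all 9 classes of days 0 to 27 in 1 fit, adjusted over all genes tested. A call needs an adjusted p under 0.05 and a natural-log fold change of at least 0.5 (0.72 on the log2 scale). The scTrio-seq2 fit of RPG4 and RPG3 had treatment as a term and used genes in both tables. Depth was 15975410 to 34609591 UMIs per library in STRT-seq, 5880774 to 10723044 in 5C and 3888311 to 8059618 in DMSO samples. Shares of cells have exact Clopper-Pearson intervals and counts exact Poisson intervals at 95%, also after thinning to 50000 or 100000 UMIs; a count of 0 was given a floor of 3. The authors' comparison tables and the methylomes were not used. Named genes were the members, up to 4 called genes per list and direction with the largest change in RPG4 against RPG3, RPG3 against SSC1-4 and early-pluripotency against SSC1-4, and the 3 genes most like each member. Lists of Leydig, macrophage and endothelial markers were also summed. In RPG4 they came to 0.403 to 4.37, 20.5 to 22.6 and 0 to 2.38 CPM. In RPG3 they came to 0.899 to 11.65, 25.4 to 68.5 and 13.9 to 34.8 CPM. Of 4 Leydig genes tested, *Hsd3b1* was called higher in RPG4 than in RPG3 (log2 difference 6.24, edgeR adjusted p = 0.023). Of 4 endothelial genes 1 was called lower, and of 3 macrophage genes 0 were called. The members and lists were chosen with earlier results of these data known. The fit was tested on simulated data.

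Classes summed from the same library are paired by that library. Deviations from the class means of the same library correlated at 0.148 to 0.347 in all 7 pairs of RPG3 with RPG1, but at only 0.0562 and 0.0635 in the 2 pairs of RPG4 with RPG3. Alternatives were DESeq2 1.42.0 and its size factors, no filter, only the classes compared, library as a block, batch as a term, other minimums of cells (3 and 10), sums per batch and day, a stricter threshold (adjusted p under 0.01 and natural-log fold change of 1) and each library left out.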

Additional observations from a re-analysis of the deposited data

Results flagged for a closer look

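In 22 of 50 groups of 4 to 10 sums, 1 sum stood apart from the others by Dixon's test. That test flags about 1 in 20 groups by chance for values that vary continuously, a rate that does not hold for counts mostly at 0. In 10 of the 22 all other sums of the group were at 0, so that any UMI in 1 sum would have set it apart. In RPG3 these were *T* at 7.0 CPM in day 12 replicate 2 (11 UMIs, next highest 3.02), *Mixl1* at 3.15 and *Gata4* at 1.12 CPM in day 23 replicate 2, and *Gata6* at 0.116 CPM (1 UMI) in day 20 replicate 2. In RPG1 they were *Foxa2* at 80.8 CPM in day 18 replicate 3 (next highest 52.25), *Cdx2* at 1.90 CPM in day 23 replicate 2 (30 UMIs, others 0), *Sox17* at 1.135 CPM in day 20 replicate 2 and *Gata6* at 0.0757 CPM (1 UMI) in that library.

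In meiotic sums of day 16, replicate 5 had *Cdx2* at 1.225 and *Sox17* at 0.306 CPM, and replicate 6 had *Gata6* at 0.665 CPM. The fibroblast sum of day 10 had *Gata4* at 0.729 CPM.

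In scTrio-seq2 RPG3 cells under 5C, sample 3 (7 cells, day 14) stood apart in 3 endoderm genes, with *Gata6* at 288.5 CPM (171 UMIs, next highest 2.62), *Gata4* at 91.1 CPM (54 UMIs, others 0) and *Sox17* at 55.7 CPM (33 UMIs, others 0). A single cell held all 54 *Gata4*, 154 of the *Gata6* and 24 of the *Sox17* UMIs, and a second held 17 and 9 of the last 2. In the same class sample 7 had *T* at 45.35 CPM (104 UMIs, next highest 2.81), and sample 5 had *Eomes* at 2.85 CPM and *Cdx2* at 0.407 CPM (others 0). Of the remaining 5C sums, SSC1-4 of sample 5 had *Eomes* at 18.8 CPM (15 UMIs), of sample 3 *Sox17* at 1.04 CPM and of sample 2 *Cdx2* at 0.5285 CPM, and RPG1 of sample 6 had *Cdx2* at 0.549 CPM (1 UMI).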

How the results depend on the processing

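The counts of members called were recomputed under each alternative, and of 213 such counts 174 stayed within 1.5 times. For RPG4 against RPG3 (7) the count was 3 with sums per batch and day, 4 without each sum's highest cell (chosen after seeing the data, here and below), 4 at the stricter threshold, and 2 to 7 with 1 library left out. For RPG3 against SSC1-4 (5) it was 2 per batch and day, 3 with only the 2 classes in the fit, 3 at the stricter threshold, and 4 to 6 with 1 library left out; for RPG4 against SSC1-4 (3) it was 1 by DESeq2 and 2 to 3. For early-pluripotency (0) it was 1 at a minimum of 10 cells (*Eomes*) and 1 at 3 cells (*T*), for RPG1 (0) 1 without the highest cell (*Sox17*), and for the fibroblast class (0) 1 with batch as a term (*Gata6*). For RPG2 (5) it was 1 per batch and day, 2 at the stricter threshold and 1 to 4 with 1 library left out. For the meiotic class (1) it was 0 at 3 cells, 0 per batch and day, 0 at the stricter threshold and 0 to 1; for the neural class (3) 1 per batch and day and 1 at the stricter threshold. For scTrio-seq2 it was 0 without the highest cell and 0 to 1 in RPG4 against RPG3 (1), and in 5C against DMSO (1) it was 2 without the highest cell, 0 at the stricter threshold and 0 to 2. For RPG3 against RPG1 (4) it ran from 3 to 4.

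With library as a replicate block the counts were 4, 2 and 2 for RPG4 against RPG3, RPG3 against SSC1-4 and RPG2, 0 for the meiotic and 1 for the neural class and 0 for scTrio-seq2 RPG4 against RPG3, over fewer members; early-pluripotency, RPG1 and the fibroblast class stayed at 0 and RPG3 against RPG1 had 3. No paired analysis was possible for 5C against DMSO because the samples were collected on different days and their numbers only count them.

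Directions turned for *Gata4* in RPG4 against RPG3 (-2.31 without the highest cell), *Eomes* in RPG3 against SSC1-4 (0.12 per batch and day), *T* (-0.13) and *Foxa2* (-0.28 without the highest cell, -0.43 at 3 cells) in RPG4 against SSC1-4, and *Cdx2* in RPG3 against RPG1 (0.76 by DESeq2). With 1 library left out, *Gata6* ranged from -1.52 to 9.88 in RPG4 against RPG3, -4.52 to 6.35 in RPG4 against SSC1-4 and -4.50 to 7.5 in RPG2, *T* from -2.21 to 2.49 in RPG4 against SSC1-4, *Eomes* from -5.72 to 0.14 and *Foxa2* from -4.29 to 3.34 in scTrio-seq2 RPG4 against RPG3. The causes were not tested. For RPG4 against RPG3 in scTrio-seq2 the fit at a minimum of 10 cells was not run, since no RPG4 sum had as many, and with only these 2 classes no member passed the filter. Depth limits the members with few UMIs, such as *Cdx2*.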
